A study of Mus musculus with 15 samples.

Results

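In the single-nuclei RNA sequencing (snRNA-seq) of mouse dorsal hippocampal formation (dHF), 885 of 134019 barcodes met a 4-marker rule written to find pericytes and vascular smooth muscle. A barcode was taken when it had at least 400 genes, at least 3 unique molecular identifiers (UMIs, counted transcripts) over Atp13a5, Abcc9, Vtn and Pdgfrb together, at most 3 UMIs of Flt1, at most 1 of Col1a2, none of Gad1 or Gad2 and at most 1 of Slc17a7. The levels of those genes chose the nuclei and are given only to describe them. The nuclei came from 15 female C57BL/6J mice, with 1 library per mouse, in 3 groups. Virgin nulliparous (NP) females numbered 6. Another 4 were dams with reproductive experience (control RE, labelled ControlPP), that is breeding, pregnancy, birth, lactation and the rearing of pups. The remaining 5 were dams that also met limited nesting material and daily removal of their pups late in lactation (stress RE, labelled StressPP). The punches also took in neighbouring cortical, thalamic and ventral tissue, and the labels give no age at collection. The labels name 3 batches, and batch 1 held NP and stress RE mice but no control RE mouse.

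Pericytes sit on brain capillaries inside the basement membrane that they share with the endothelium, and smooth muscle cells ring the arterioles. Endothelial cells recruit pericytes by secreting PDGF-B, which binds the receptor encoded by Pdgfrb, and further contact runs through Notch, TGF-beta and angiopoietin signals. Pericyte tone depends on an ATP-sensitive potassium channel, on calcium and chloride channels, and on receptors for endothelin, thromboxane, adenosine and nitric oxide. Arteriolar smooth muscle is set apart by its contractile proteins, above all the actin and myosin encoded by Acta2 and Myh11.

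The libraries held 40602582 to 96211264 UMIs, and the median barcode of a library had 3993 to 8754 UMIs. Each mouse gave 37 to 84 chosen nuclei, between 0.352% and 1.08% of its barcodes with at least 400 genes. The mean share was 0.682% ± 0.186 (SD, n = 15). Of the 885 nuclei, 54 were among the barcodes removed as doublets and 2 had over 5% mitochondrial UMIs in an alternative, and both were kept here. Barcode sequences present in 2 or more libraries numbered 2211. Of the chosen nuclei 29 had such a barcode, and 0 of these were chosen in both libraries.

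Checked against marker lists of several classes, the chosen nuclei fell into several kinds. Pericyte-like nuclei were 413 of 885 (46.7%). They were what remained after limits set once the marker sums had been seen, namely under 10 UMIs of an astrocyte list, under 10 UMIs of each list of another class (the neuron list counted without Meg3, an abundant noncoding RNA gene), and either under 5 fibroblast UMIs or no more fibroblast than pericyte UMIs. Another 273 nuclei (30.8%) had at least 10 UMIs of the astrocyte list (Aqp4, Slc1a2, Gja1, Aldh1l1, Gfap, Gpc5 and Slc7a10). Their median was 94 such UMIs, against 0 in the pericyte-like nuclei. The fibroblast list (Col1a1, Dcn, Lum, Slc6a13, Bnc2 and others) marked 134 nuclei (15.1%), and 65 (7.34%) carried the markers of yet another class, such as neurons, oligodendrocytes or endothelium. With Meg3 the neuron list had a median of 5 and a maximum of 27 UMIs in the pericyte-like nuclei. At least 1 UMI of the 8-gene pericyte list was found in 600 of the 885 nuclei, and in 399 of the 413. Results are given below for all 885 nuclei and for the 413 pericyte-like nuclei.

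**Figure D1:**
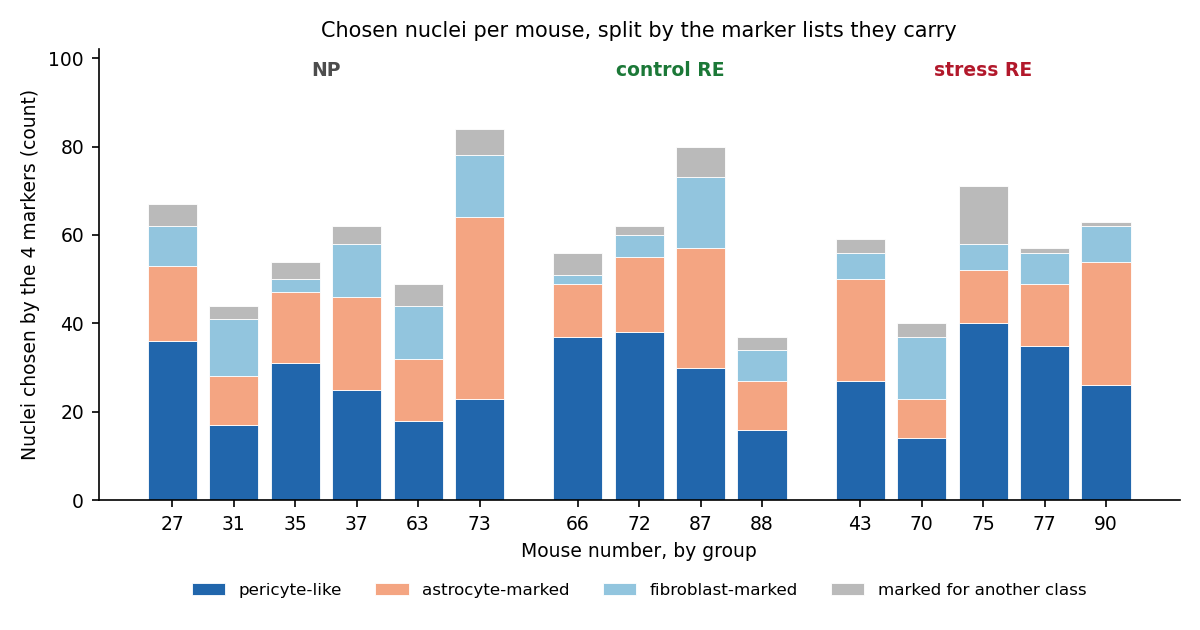
Nuclei chosen by the 4 markers in each of the 15 mice (count, y axis), grouped as NP, control RE and stress RE and stacked by kind, that is pericyte-like, astrocyte-marked, fibroblast-marked and otherwise marked nuclei. Every mouse held all 4 kinds, and the pericyte-like segment ran from 14 nuclei in stress RE mouse 70 to 40 in stress RE mouse 75.

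The kinds differed in which of the 4 markers had brought them in. Among pericyte-like nuclei 94.4% had a UMI of Atp13a5, a transport ATPase gene used as a marker of brain pericytes, 82.3% of Pdgfrb, 81.6% of Vtn, which encodes vitronectin, and 75.1% of Abcc9. Astrocyte-marked nuclei had Atp13a5 in 85.7% and Pdgfrb in 68.1%, but Vtn in 6.59% and Abcc9 in 2.20%. Fibroblast-marked nuclei had Vtn in 68.7%, Pdgfrb in 57.5%, Atp13a5 in 38.8% and Abcc9 in 14.2%. The median sum over the 4 markers was 14 UMIs in pericyte-like, 4 in fibroblast-marked and 3 in astrocyte-marked nuclei. Depth ran the other way, with medians of 1782, 3008 and 5034 UMIs per nucleus in the same order.

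The astrocyte-marked nuclei were a small share of a large class. The series held 9960 barcodes with at least 20 UMIs of the astrocyte list, of which 265 (2.66%) were chosen. Over all 9960, at a median of 4000 UMIs, 17.0% had a UMI of Atp13a5 and 17.7% had one of Pdgfrb, whereas Vtn was seen in 0.733% and Abcc9 in 0.0803%. Of the 273 astrocyte-marked nuclei 173 had no UMI of 8 pericyte genes outside the rule (Kcnj8, Rgs5, Higd1b, Notch3, Cspg4, Anpep, P2ry14 and Ndufa4l2). Of the 413 pericyte-like nuclei 399 had at least 1 and 14 had none. By astrocyte UMIs few nuclei lay between the low and the high values, with 303 at 0, 293 at 1 to 4 and 24 at 5 to 19. Above that, 36 were at 20 to 49, 98 at 50 to 99 and 131 at 100 or more. The fibroblast limit was less clear, with 78 nuclei at 4 to 6 fibroblast UMIs.

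**Figure D2:**
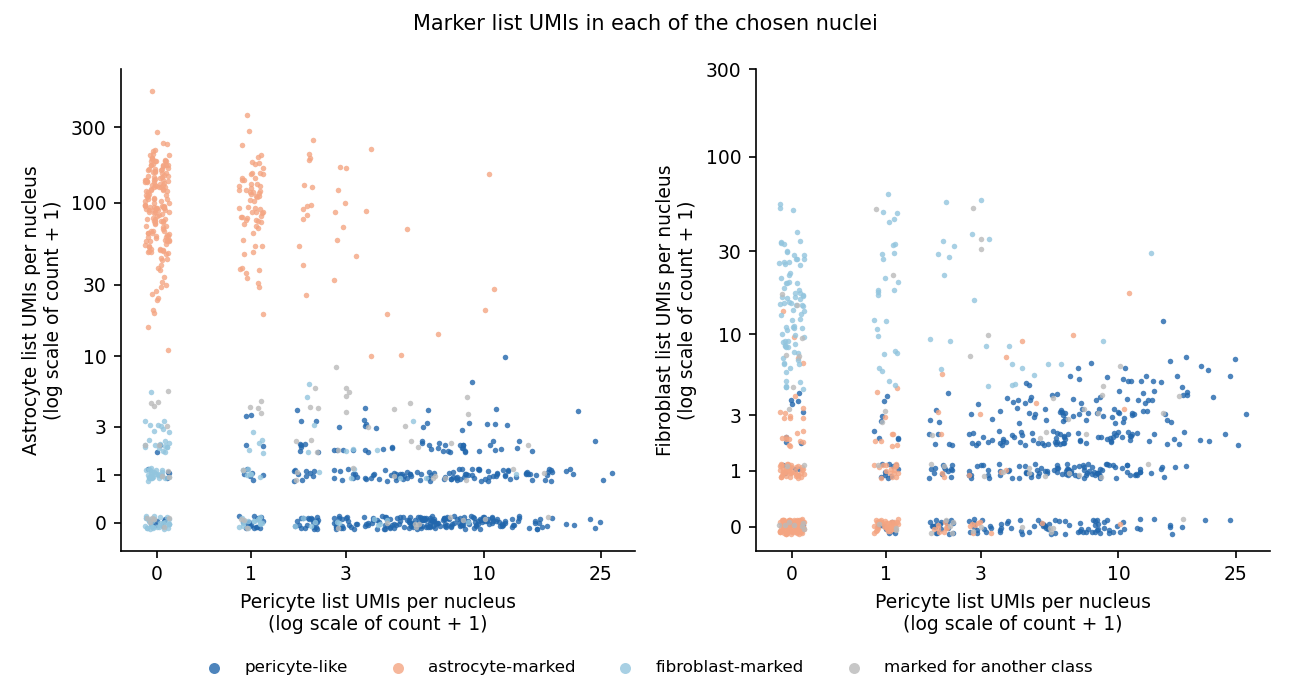
Each point is 1 of the 885 chosen nuclei, placed by its UMIs of the 8-gene pericyte list and of the astrocyte list (left) or the fibroblast list (right), on log axes of count + 1 with small random offsets. Most astrocyte-marked nuclei lie above 20 astrocyte UMIs and near 0 pericyte UMIs, and the pericyte-like nuclei reach 26 pericyte UMIs at under 10 astrocyte UMIs.

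At the limit of 3 marker UMIs stood 280 chosen nuclei, of which 17 were pericyte-like, 192 astrocyte-marked, 55 fibroblast-marked and 16 otherwise marked. Just outside it, 836 barcodes had 2 marker UMIs and met every other condition. By the same limits 26 of them were pericyte-like and 645 astrocyte-marked.

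Few chosen nuclei were rich in transcripts of 3 contractile genes of smooth muscle. Only 12 of 885, from 9 mice, had at least 3 UMIs over Acta2, Myh11 and Tagln, the genes of smooth muscle actin, myosin heavy chain and transgelin, and 825 had none. Of those 12, 8 were pericyte-like, 3 astrocyte-marked and 1 otherwise marked. The whole series held 119 barcodes with at least 3 contractile UMIs, so the rule took 10.1% of them. Of the 107 not taken, 94 had under 3 UMIs of the 4 markers, 58 had none, and 14 had over 3 UMIs of Flt1. Among the 42 barcodes with at least 10 contractile UMIs, 3 were chosen. A wider list of 8 smooth muscle genes, these 3 with Cnn1, Lmod1, Myl9, Des and Myocd, was less clear. At least 1 of its UMIs was found in 182 of the 885 nuclei and in 131 of the 413 pericyte-like nuclei. Acta2, Myh11 and Tagln thus went against the smooth muscle in the label, and the nuclei are called pericyte-like below.

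Levels below are UMIs of a gene per 1e6 UMIs (CPM) summed over the pericyte-like nuclei of each mouse, as mean ± SD over 15 mice. Each gene is set beside its own level in classes found by markers of their own. These are an endothelial class of 1016 barcodes, a fibroblast class of 797 and an oligodendrocyte class of 29009. Their medians were 2315, 3256 and 2890 UMIs per nucleus, against 1782 in pericyte-like nuclei. Limits on genes of the marker rule also helped to define the classes, so the class levels of those genes were set in part by choice. Unlike the pericyte-like nuclei, the endothelial and fibroblast classes had no limit on the summed lists of other classes. The oligodendrocyte list had means of 2083 and 780 CPM in them, against 685 in pericyte-like nuclei. The choroid plexus list had 1019 and 1749 against 167 CPM, and the neuron list 3634 and 3026 against 3186 CPM. The part of RNA from other cells in the class levels was not tested. Because expression chose the nuclei, no test is given for differences between the pericyte-like nuclei and a class. The number of mice in which the pericyte-like level lay above the class is given instead. The counts of list genes that reached 50 CPM or lay above a class have no count over all genes beside them. They are a description only and do not show that a list stands out. The oligodendrocyte class, which should lack vascular transcripts, serves as the background from free RNA. Because of the limits on genes of the marker rule, this background may be too low for vascular genes, and by how much was not tested.

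Both subunits of the vascular ATP-sensitive potassium channel were measured. Its pore is encoded by Kcnj8 and its sulfonylurea receptor by Abcc9, and the genes are neighbours on the minus strand of chromosome 6 (GRCm38, Kcnj8 at chr6:142564837-142571614 and Abcc9 at chr6:142587862-142702315). Kcnj8 stood at 202 ± 67.1 CPM, against 0.600 in the endothelial and 0.358 in the fibroblast class, and was seen in 27.8% of pericyte-like nuclei against 0.0379% of oligodendrocyte barcodes. By mouse, Kcnj8 was at 86.3 to 258 CPM (median 194) in NP, at 99.6, 168, 261 and 289 CPM in control RE and at 142, 187, 268, 272 and 282 CPM in stress RE. The 3 groups overlapped. Abcc9, a gene of the rule, stood at 1139.9 ± 169.6 CPM, with 1098 to 1411 CPM (median 1126) in NP, 863, 972, 1211 and 1422 CPM in control RE and 888, 1026, 1070.1, 1209.7 and 1337 CPM in stress RE. The groups again overlapped. Kcnj8 was not in the rule but was in the list that split the kinds.

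The bases before both genes are shown because the channel is built from both subunits and the genes lie side by side. The windows searched are the 250 bases before the start that RefSeq gives on GRCm38.p6, written 5′ to 3′ on the strand of the gene. The gene positions above are those of GENCODE, in which Abcc9 starts 41 bases before its RefSeq start, and only bases outside the GENCODE gene are printed. For Kcnj8 these are the 250 bases of chr6:142571615-142571864 and for Abcc9 the 209 bases of chr6:142702316-142702524, both on the minus strand. Capitals mark TGGGAA or its reverse complement TTCCCA, the core bound by RBPJ, the DNA-binding partner of Notch, searched on both strands.
Kcnj8: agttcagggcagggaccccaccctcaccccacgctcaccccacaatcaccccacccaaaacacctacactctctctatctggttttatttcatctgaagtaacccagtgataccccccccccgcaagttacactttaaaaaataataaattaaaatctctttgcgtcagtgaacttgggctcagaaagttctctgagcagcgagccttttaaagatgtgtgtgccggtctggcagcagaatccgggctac
Abcc9: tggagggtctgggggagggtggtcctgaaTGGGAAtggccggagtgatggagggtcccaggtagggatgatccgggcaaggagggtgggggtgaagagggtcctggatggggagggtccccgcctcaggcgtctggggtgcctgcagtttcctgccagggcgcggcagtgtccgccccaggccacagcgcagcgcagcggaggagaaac
The Abcc9 window held 1 match, 221 bases before the RefSeq start, and the Kcnj8 window held 0. Of 32851 mouse promoter windows of this length 21.6% held the motif. Counted by gene, 24.1% of 27025 gene symbols held it in at least 1 window. Of the 20 genes that led the pericyte-like nuclei by ratio to the other classes, 17 had a window and 6 held the motif in at least 1. A match is a string of letters and not a measured site.

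The pericyte identity list had 24 genes, of which 22 reached 50 CPM in pericyte-like nuclei. In all 15 mice 20 of the 24 lay above the endothelial class, and 15 lay above the fibroblast class. The 8 genes used to sort the kinds are among them. Rgs5, a brake on G-protein signals, stood at 1151 ± 279.9 CPM against 41.5 in endothelium, Notch3, the Notch receptor of mural cells, at 1206 ± 162 against 7.96, and Higd1b at 111 ± 66.6 against 0. Genes that sorted nothing included Art3, of the ADP-ribosyltransferase family, at 381 ± 78.8 CPM against 2.88 in endothelium, the long noncoding RNA gene Carmn at 666 ± 165 against 11.2, and Enpep, which encodes the angiotensin-cleaving aminopeptidase A, at 164 ± 49.8 against 0.743. The transcription factor gene Ebf1 stood at 3702 ± 496 CPM and was also high in endothelium, at 2282. Slc6a20a, a proline transporter gene, stood at 1214 ± 213 CPM, above endothelium (24.1) in 15 mice but above fibroblasts (1469) in 4. Slco3a1, of the organic anion transporters, stood at 1009.5 ± 177 CPM against 116 in endothelium and 279 in fibroblasts. The transcription factor genes Tbx18 and Foxc1 stood at 119.6 and 62.1 CPM against 203 and 110.4 in fibroblasts, and Foxf2 at 22.2 CPM against 18.5 in endothelium.

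Genes of the pericyte-like nuclei were ranked by ratio to the highest of the endothelial, fibroblast and oligodendrocyte classes and the barcodes rich in astrocyte UMIs. The leading genes included Abcc9, Gm36823, Kcnj8, Atp13a5, Higd1b, Art3, Slc38a11, Ano1 and Pde4c. For the rule genes Abcc9 and Atp13a5 the limits that defined the classes set the ratio in part. Gm36823, a predicted gene, stood at 247 ± 98.3 CPM, with 0 in endothelium. Morrbid, a long noncoding RNA known from myeloid cells, stood at 997 ± 155 CPM against 16.9 in endothelium and 0.748 in oligodendrocytes. The ranking of all 885 nuclei left the barcodes rich in astrocyte UMIs out of the ratio, and 3 of its 12 leading genes were of another kind. Genes high in those barcodes could thus lead this ranking but hardly the pericyte-like one. Gm12239, Gm35552 and Acsbg1 stood at 222, 57.7 and 166 CPM over the 885 nuclei, at 4.30, 0 and 2.18 CPM in the pericyte-like nuclei and at 315, 70.4 and 219 CPM in the 9960 barcodes rich in astrocyte UMIs.

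Contractile genes were mostly low in the pericyte-like nuclei. Of 22 genes 7 reached 50 CPM, and 3 lay above endothelium in all 15 mice. The 8-gene smooth muscle list summed to 267 ± 80.5 CPM, against 81.6 in endothelium and 65.4 in fibroblasts. Cald1, which encodes the actin-binding caldesmon, stood at 1915 ± 379 CPM against 158 in endothelium, Mylk, the myosin light chain kinase gene, at 253 ± 43.9 against 83.5, and Myl9, a myosin light chain gene, at 122 ± 52.6 against 10.6. Tpm1, a tropomyosin gene, stood at 164 ± 66.1 CPM, above endothelium (87.6) in 12 mice, and Ppp1r12b, of the myosin phosphatase, at 230.2 ± 79.1 CPM, above its endothelial level of 209 in 9. Casq2, a calcium store gene, stood at 70.7 ± 41.1 CPM against 0, and Myh11 at 71.2 ± 50.5 against 32.5. Acta2 gave 7 UMIs over the 413 nuclei, Tagln 6, the calponin gene Cnn1 1 and the gamma smooth muscle actin gene Actg2 0. All 5 stress RE mice were at 0 for Acta2, and the highest mouse, NP mouse 31, stood at 43.1 CPM. With only 7 UMIs over all 15 mice, these values lie at the floor and cannot tell the groups apart.

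The recruitment list holds ligands, receptors and targets of the signals between endothelium and pericytes. Pdgfb, the ligand of Pdgfrb, had 0 UMIs in the 413 pericyte-like nuclei, which allows up to 0.726% of nuclei with a UMI or 3.81 CPM, and stood at 209 CPM in the endothelial class. Pdgfd, another PDGF gene, was at 20.9 CPM against 851 in endothelium, and Tek, the angiopoietin receptor gene, at 4.75 against 619. The Notch ligand gene Dll4 had 0 UMIs against 26.2 CPM in endothelium, whereas Jag1 was at 111 CPM in pericyte-like and 106 in endothelial nuclei. The Notch target genes Heyl and Hey2 stood at 122 ± 62.5 and 82.3 ± 37.6 CPM, against 2.72 and 14.9 in endothelium, with Heyl higher in 15 mice and Hey2 in 14. S1pr3, a sphingosine phosphate receptor gene, was at 163 ± 68.2 CPM against 2.55 in endothelium, and S1pr1 at 3.88 against 93.1. Tgfbr3, a TGF-beta co-receptor gene, was at 178 CPM against 581.8 in fibroblasts, and Eng, the endoglin gene, at 109 against 329 in endothelium. Cdh2, the N-cadherin gene of contacts with endothelium, was at 578 ± 151 CPM against 289. Over the list of 30 genes, 13 reached 50 CPM, 3 lay above endothelium in all mice and 7 above fibroblasts.

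Hey2 is a known Notch target in the vascular wall, and the 232 bases of its window outside the GENCODE gene (chr10:30842802-30843033, minus strand) are shown for that reason, with the same capitals.
Hey2: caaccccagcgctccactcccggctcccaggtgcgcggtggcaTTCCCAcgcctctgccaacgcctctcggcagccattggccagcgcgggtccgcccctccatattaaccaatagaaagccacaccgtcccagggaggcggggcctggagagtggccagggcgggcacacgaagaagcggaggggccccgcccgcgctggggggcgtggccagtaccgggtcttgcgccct
It held 1 match, on the reverse strand, 207 bases before the start.

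Of 28 ion channel genes 18 reached 50 CPM, and 9 lay above endothelium in all 15 mice. Cacna1c, the pore of the L-type calcium channel, stood at 2241 ± 338 CPM against 512 in endothelium and 611 in oligodendrocytes. Trpc4, of the receptor-operated cation channels, stood at 481 ± 113 CPM, against 35.2 in endothelium. Ano1, the calcium-activated chloride channel gene, stood at 768 ± 121 CPM against 4.88, and was seen in 61.3% of pericyte-like nuclei and 1.30% of oligodendrocyte barcodes. Itpr1 and Itpr2, which release calcium from internal stores, were at 775 and 775 CPM, against 282 and 311. Gjc1, a gap junction gene, was at 306 ± 76.99 CPM against 103. Kcnma1, the large-conductance potassium channel gene, was at 354 ± 147 CPM, below its level in endothelium (452) and oligodendrocytes (653), and its smooth muscle subunit gene Kcnmb1 gave 6 UMIs.

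**Figure D3:**
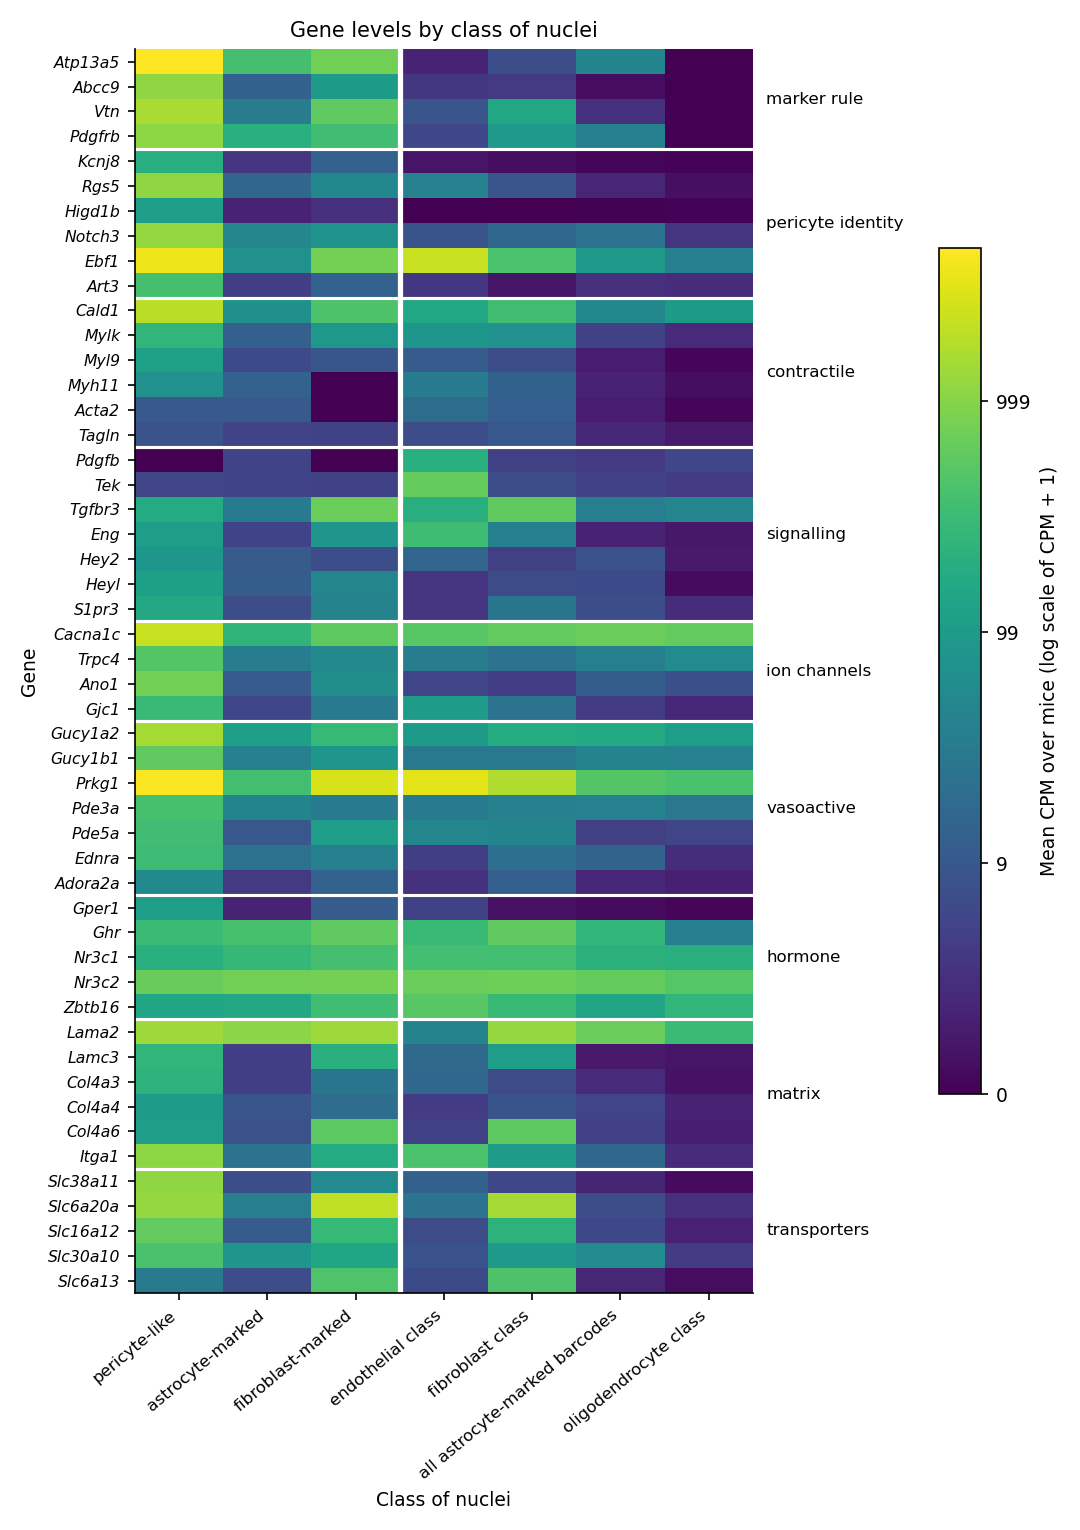
CPM of genes (y axis, grouped by role) in 7 classes of nuclei (x axis), on a log color scale of CPM + 1. Values are means over mice, except that the astrocyte-marked and fibroblast-marked columns pool the nuclei of all mice. Kcnj8 stands at 202 CPM and Ano1 at 768 CPM in the pericyte-like column, against 0.600 and 4.88 CPM in the endothelial column.

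Of 34 genes for vasoactive signals 13 reached 50 CPM, and 8 lay above endothelium in all mice. Ednra, the endothelin receptor gene of contractile cells, stood at 326 ± 96.9 CPM against 3.74. Along the nitric oxide pathway, the guanylate cyclase genes Gucy1a1, Gucy1a2 and Gucy1b1 stood at 304, 1486 and 586 CPM against 9.91, 99.1 and 29.4 in endothelium, and Prkg1, the kinase that answers to cyclic GMP, at 4337 ± 604 against 3249. The cyclic nucleotide phosphodiesterase genes Pde3a and Pde5a were at 399.98 ± 170.2 and 344 ± 93.9 CPM, against 31.4 and 47.4, while Pde1a was at 325 against 1079 in fibroblasts. Adora2a (adenosine), Tbxa2r (thromboxane) and Cysltr2 (leukotriene) were at 55.0, 57.7 and 58.5 CPM, each above endothelium in 13 mice. Adrenergic receptor genes were at or near 0, with 8 UMIs of Adra1a, 2 of Adra1b and 0 of Adra1d, and the angiotensin receptor gene Agtr1a gave 4 UMIs.

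Among 20 hormone and stress genes, 9 reached 50 CPM, and Gper1 alone lay above both endothelium and fibroblasts in all 15 mice. It encodes a membrane estrogen receptor coupled to G proteins and stood at 113 ± 40.5 CPM, against 4.07 in endothelium, 0.452 in fibroblasts and 0.151 in oligodendrocytes. Gper1 was seen in 18.6% of pericyte-like nuclei against 0.0620% of oligodendrocyte barcodes. By mouse Gper1 was at 45.9 to 122 CPM (median 92.6) in NP, at 93.2, 124, 133 and 189 CPM in control RE and at 81.0, 90.6, 144, 154 and 170.4 CPM in stress RE. The ranges overlapped. The pericyte-like nuclei gave 30125 to 77414 UMIs per mouse, so each of these values rests on few Gper1 UMIs. Gper1 did not pass the filter on low counts in the gene fit, so a difference between groups was not tested. The nuclear estrogen receptor genes gave 1 UMI (Esr1) and 0 (Esr2), the oxytocin receptor gene Oxtr 0, the prolactin receptor gene Prlr 4 and the progesterone receptor gene Pgr 7. The mineralocorticoid and glucocorticoid receptor genes Nr3c2 and Nr3c1 were at 643 and 208 CPM, against 701 and 371 in endothelium. The glucocorticoid-induced genes Zbtb16 and Fkbp5 were at 147 and 31.02 CPM against 506 and 88.2, above endothelium in 0 mice.

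The 222 bases of the Gper1 window outside the GENCODE gene (chr5:139422929-139423150, plus strand) are shown because Gper1 lay above both vascular classes in every mouse.
Gper1: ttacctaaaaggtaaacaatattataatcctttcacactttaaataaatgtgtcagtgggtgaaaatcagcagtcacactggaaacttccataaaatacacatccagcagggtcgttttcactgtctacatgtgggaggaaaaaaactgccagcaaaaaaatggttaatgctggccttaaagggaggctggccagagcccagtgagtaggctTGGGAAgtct
It held 1 match, 38 bases before the RefSeq start.

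Of 28 basement membrane genes 22 reached 50 CPM, and 9 lay above endothelium in all mice. The laminin genes Lama2, Lamc1 and Lamc3 stood at 1341 ± 235, 769.5 ± 183 and 258 ± 85.3 CPM, against 42.0, 97.0 and 17.2 in endothelium. Lama5, a laminin chain gene of endothelium, had 0 UMIs against 68.4 CPM. Of the collagen IV genes, Col4a3 and Col4a4 were at 232 and 102.2 CPM, against 15.7 and 3.39 in endothelium. Col4a5 and Col4a6 were at 85.1 and 113 CPM against 489.9 and 573 in fibroblasts, and the common chains Col4a1 and Col4a2 at 118 and 104 CPM against 133 and 122 in endothelium. The collagen-binding integrin gene Itga1 was at 1101 ± 227 CPM against 425 in endothelium, and Sparcl1, a matrix protein gene, at 434 against 271. Fn1, the fibronectin gene, was at 10.1 CPM against 318.

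Of 23 transporter and surface enzyme genes 15 reached 50 CPM, 12 lay above endothelium in all mice and 7 above fibroblasts. Slc38a11, an amino acid transporter gene, stood at 1124 ± 198 CPM against 12.6 in endothelium and 5.24 in fibroblasts. Slc16a12, of the monocarboxylate family, stood at 608 ± 195 CPM against 6.10 and 234, and Slc30a10, which exports manganese, at 410.2 ± 113 against 7.499 and 92.2. The blood-brain barrier genes Slc2a1, for the glucose transporter, and Abcc4 were at 11.8 and 11.5 CPM against 451 and 813 in endothelium. Slc1a3, an astrocyte glutamate transporter gene, stood at 97.9 CPM in pericyte-like nuclei against 1021 over all 885.

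Dopamine is the subject of the study, and most monoamine genes were low in these nuclei. The dopamine receptor genes Drd1 and Drd2 gave 2 and 0 UMIs over the 413 nuclei. Of the 14 genes 2 reached 50 CPM, among them the aldehyde dehydrogenase gene Aldh2 at 82.5 CPM against 69.8 in endothelium, and Maob, a breakdown gene, was at 14.7 CPM. Of 22 inflammation genes 4 reached 50 CPM, and 0 lay above endothelium in all mice. Nfkb1, Stat3 and Il6st stood at 149, 132 and 111 CPM, and Il1r1, the interleukin-1 receptor gene, at 55.9 CPM against 516 in endothelium. The chemokine, cytokine and adhesion genes Ccl2, Cxcl1, Il6 and Icam1 had 0 UMIs.

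The abundance of these nuclei was compared between groups to ask whether reproductive experience or stress went with more or fewer of them. NP mice had 0.568% to 1.08% chosen nuclei (median 0.717%), control RE mice had 0.352%, 0.550%, 0.585% and 0.691%, and stress RE mice had 0.558%, 0.669%, 0.675%, 0.691% and 0.716%. The groups overlapped, with the lowest share in control RE mouse 88 (95% Wilson interval 0.255% to 0.485%) and the highest in NP mouse 73 (0.870% to 1.33%), intervals that cover counting error only. Control RE minus NP was −0.245 percentage points (0.544% ± 0.142, n = 4, against 0.789% ± 0.230, n = 6; p = 0.105, two-sided exact permutation test over mice; adjusted p = 0.619 over 9 share tests). Stress RE minus control RE was 0.117 points (0.662% ± 0.0609, n = 5; exact p = 0.175, adjusted p = 0.619), and stress RE minus NP was −0.128 points (exact p = 0.333, adjusted p = 0.656). The smallest p these group sizes allow are 0.00952, 0.0159 and 0.00433. Control RE minus NP was −0.113 points within batch 2 and −0.310 within batch 3, stress RE minus control RE was 0.204 and 0.0163, and stress RE minus NP was 0.0907 and −0.294. Batch 1, with NP mice 27 and 31 and stress RE mouse 70, gave −0.165 points for stress RE minus NP. Without control RE mouse 87, control RE minus NP was −0.294 points (exact permutation p = 0.0476, unadjusted). Astrocyte-marked nuclei were 48.8% of the chosen nuclei in mouse 73 (NP) against 16.9% in mouse 75 (stress RE), and their part in these differences was not tested.

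For the pericyte-like nuclei alone, NP mice had 0.209% to 0.571% (median 0.306%), control RE mice 0.152%, 0.259%, 0.358% and 0.364%, and stress RE mice 0.242%, 0.276%, 0.314%, 0.328% and 0.414%. The groups overlapped throughout, and the means were 0.331% ± 0.127, 0.283% ± 0.0998 and 0.315% ± 0.0650. Control RE minus NP was −0.0473 points (exact permutation p = 0.619), stress RE minus control RE 0.0316 (exact p = 0.571) and stress RE minus NP −0.0157 (exact p = 0.866), with adjusted p from 0.928 to 0.933 over 15 added tests. These directions rested on single mice. Without NP mouse 27, control RE minus NP was 0.000847 points and stress RE minus NP 0.0324 (exact permutation p = 0.984 and 0.437). Without stress RE mouse 70, stress RE minus NP was 0.00254, and without control RE mouse 88, stress RE minus control RE was −0.0121 (exact permutation p = 0.933 and 0.821). Within batch 2 and batch 3, control RE minus NP was −0.0197 and 0.00574 points, stress RE minus control RE 0.0900 and 0.00963, and stress RE minus NP 0.0703 and 0.0154, with −0.169 for the last within batch 1. Per 100 endothelial barcodes of the same library, the NP mice had 46.8 ± 27.2 pericyte-like nuclei, the control RE mice 44.3 ± 20.8 and the stress RE mice 61.8 ± 19.5 (exact p = 0.933, 0.254 and 0.329 for control RE minus NP, stress RE minus control RE and stress RE minus NP). Control RE minus NP was −2.49 with all mice, 7.52 without NP mouse 35 and 6.54 without control RE mouse 87. Stress RE minus NP was 15.0 with all mice and 25.0 without NP mouse 35 (exact permutation p = 0.0397, unadjusted), and within batches 1 to 3 it was 45.7, −15.7 and 30.7. The ranges over mice were 21.7 to 96.9 (NP), 17.2 to 64.9 (control RE) and 43.5 to 93.3 (stress RE). All chosen nuclei per 100 endothelial barcodes numbered 108 ± 42.4, 84.3 ± 36.1 and 140.2 ± 75.3 (exact p = 0.390, 0.206 and 0.437). The highest, stress RE mouse 70 at 267, rests on 15 endothelial barcodes. Stress RE minus NP for this measure was 158 within batch 1, which holds that mouse, −33.5 within batch 2 and 35.9 within batch 3.

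**Figure D4:**
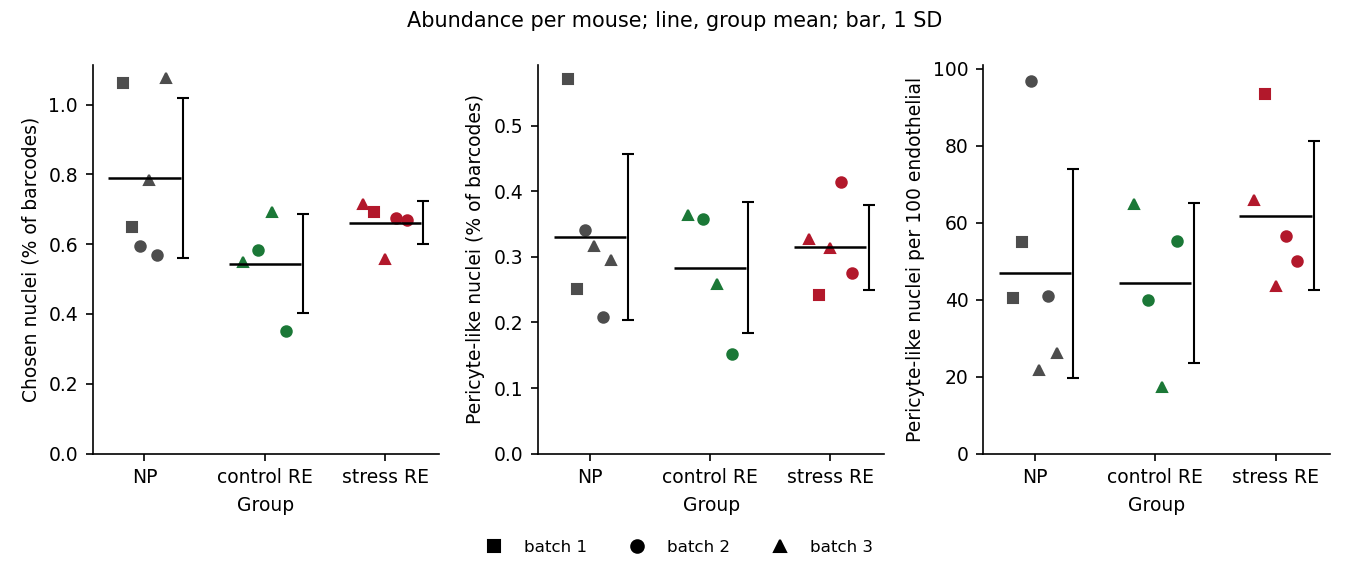
Share of all chosen nuclei (left, % of barcodes), share of pericyte-like nuclei (centre, % of barcodes) and pericyte-like nuclei per 100 endothelial barcodes (right) in each mouse, by group. Symbols give the batch, lines the group mean and bars 1 SD. The groups overlap in all 3 panels, and NP mouse 27 stands highest for the share of pericyte-like nuclei at 0.571%.

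Nuclei with at least 3 contractile UMIs made up 1.47% ± 1.28 of the chosen nuclei of NP mice, 1.48% ± 1.72 of control RE and 1.42% ± 1.44 of stress RE mice (exact permutation p = 1, 0.905 and 0.957). In 6 mice there were 0, which at their numbers allows a share of up to 3.57% to 6.12%. These shares rest on 12 nuclei in all.

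Gene expression was then compared between groups, with UMIs summed per mouse and all 3 groups in a single edgeR fit. Over the 885 nuclei 5172 genes were tested, and 0 (0%) passed an adjusted p of 0.05 in control RE against NP, in stress RE against control RE or in stress RE against NP. At an unadjusted p under 0.05 there were 179 (3.46%), 159 (3.07%) and 170 (3.29%) genes. DESeq2 also called 0, with 125 (2.42%), 108 (2.09%) and 113 (2.18%) genes at an unadjusted p under 0.05. In the pericyte-like nuclei 1269 genes were tested, and again 0 (0%) passed in each pair, with 42 (3.31%), 64 (5.04%) and 83 (6.54%) at an unadjusted p under 0.05. There DESeq2 called 0, with 31 (2.44%), 52 (4.1%) and 66 (5.2%). The genes named below have the lowest p or belong to the lists, mostly with an unadjusted p under 0.05, and 0 of them passed the adjusted threshold with all mice in the fit. For some of them the mice of 2 groups did not overlap, and for others they did not once a single mouse was set aside. That mouse differs between genes and was named after its values were seen. How many of all genes tested separate in either way was not counted, so both are given as a description only.

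Pde3a, whose phosphodiesterase breaks down cyclic AMP in vascular muscle, had the lowest p for control RE against NP in pericyte-like nuclei. It was at 382 to 791 CPM (median 452) in NP, at 227, 232, 290.2 and 317 CPM in control RE and at 199, 284, 329, 392 and 513 CPM in stress RE. All 4 control RE mice lay below every NP mouse, and stress RE spanned both. The log2 difference was −0.95 (SE 0.28, adjusted p = 0.999 by edgeR) for control RE minus NP and −0.61 (SE 0.25, adjusted p = 0.620) for stress RE minus NP. Over all 885 nuclei the Pde3a difference of control RE minus NP was −0.40 (SE 0.33).

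The potassium channel gene Kcnma1 was at 144, 163, 179.6, 204 and 405 CPM in stress RE, at 377, 393, 410.0 and 598 CPM in control RE and at 276 to 608 CPM (median 369.9) in NP. Stress RE mouse 90 lay among the other groups, and the remaining 4 lay below every control RE and NP mouse. The log2 difference of stress RE was −0.95 (SE 0.31, adjusted p = 0.670 by edgeR) from control RE and −0.85 (SE 0.29, adjusted p = 0.615) from NP. Kcnma1 was at 653 CPM in the oligodendrocyte class and 975 CPM in barcodes rich in astrocyte UMIs, and the part of RNA from other cells in this difference was not tested.

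Stress RE mouse 90 also stood apart for 2 genes of neural membranes. Dpp6, an auxiliary subunit gene of potassium channels, was at 82.3, 85.2, 109, 154 and 263 CPM in stress RE and at 242, 289, 334 and 398 CPM in control RE (log2 difference −1.15, SE 0.32, adjusted p = 0.543 by edgeR). Nkain2, which encodes a partner of the sodium pump, was at 358, 432, 471, 590.1 and 993 CPM in stress RE and at 909.6, 943, 1137 and 1361 CPM in control RE (log2 difference −0.91, SE 0.26, adjusted p = 0.543 by edgeR). Without stress RE mouse 90, Dpp6 and Nkain2 passed at −1.52 and −1.20 (adjusted p = 0.0457 by edgeR for both). In the oligodendrocyte class Dpp6 was at 561 CPM and Nkain2 at 9684 CPM, against 234 and 846 CPM in pericyte-like nuclei. Of the neuron list, 6 of 8 genes had UMIs in pericyte-like nuclei (Gad1 and Gad2, which the rule bars, were at 0), and their sum was 1523 to 4354 CPM in NP (mean 3385 ± 1032), 2149.9 to 4415 CPM in control RE (mean 3374 ± 932) and 1708 to 4054 CPM in stress RE (mean 2797 ± 911). Of the oligodendrocyte list all 7 genes had UMIs, and their sum was 367 to 979 CPM in NP (mean 629 ± 205), 496 to 784 CPM in control RE (mean 670.2 ± 125) and 486 to 1214 CPM in stress RE (mean 763 ± 289.8). The group ranges overlapped for both lists, and the part of RNA from either class in the differences of Kcnma1, Dpp6 and Nkain2 was not tested. Alcam, a cell adhesion gene, had the lowest p of stress RE against control RE, at 0, 34.1, 54.3, 61.7 and 103 CPM in stress RE, 112, 145, 398 and 475 CPM in control RE and 48.6 to 258 CPM (median 85.4) in NP. Every stress RE mouse lay below every control RE mouse (log2 difference −2.39, SE 0.62, adjusted p = 0.543 by edgeR). Alcam was at 2262 CPM in the fibroblast class.

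Several list genes differed in value in stress RE without passing the adjusted threshold. Slc30a10, the manganese exporter gene, was at 344, 514, 539, 547 and 664 CPM in stress RE, at 298, 332, 348 and 393 CPM in control RE and at 268 to 453 CPM (median 347) in NP. Stress RE mouse 43 lay within the other groups, and the remaining 4 lay above every control RE and NP mouse. The log2 difference of Slc30a10 was 0.63 (SE 0.24, adjusted p = 0.859 by edgeR) from control RE and 0.55 (SE 0.21, adjusted p = 0.620) from NP. S1pr3 was at 162, 199, 221, 226 and 257 CPM in stress RE against 74.6, 101.6, 133 and 145 CPM in control RE, without overlap, while NP ran over 72.97 to 313 CPM (median 140.3) (log2 difference from control RE 0.95, SE 0.40, adjusted p = 0.859 by edgeR). Lama4, a laminin gene, and Ghr, the growth hormone receptor gene, differed from NP by 0.54 (SE 0.24) and 0.55 (SE 0.26) on the log2 scale (adjusted p = 0.673 and 0.717 by edgeR). Nrp1, a receptor gene for VEGF and semaphorins, was at 61.7, 68.2, 122, 128 and 217 CPM in stress RE against 183 to 292 CPM (median 217) in NP (log2 difference −0.84, SE 0.32, adjusted p = 0.620 by edgeR). Slc1a2, the astrocyte glutamate transporter gene, had the lowest p of stress RE against NP, at 103, 217, 304, 329 and 613 CPM against 43.1 to 277 CPM (median 137) (log2 difference 1.29, SE 0.38, adjusted p = 0.615 by edgeR). It is in the astrocyte list that sorted the nuclei and stood at 4442 CPM in barcodes rich in astrocyte UMIs.

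Marker lists of other classes were summed in the same pericyte-like nuclei. Of the endothelial list all 10 genes had UMIs, and their sum was 138 to 331 CPM in NP (mean 241 ± 85.9), 166 to 331 CPM in control RE (mean 244 ± 69.7) and 257 to 446 CPM in stress RE (mean 391 ± 77.8). Of the astrocyte list all 7 genes had UMIs, and their sum was 219.6 to 455 CPM in NP (mean 336 ± 98.9), 269 to 354 CPM in control RE (mean 314 ± 37.8) and 179.6 to 749.7 CPM in stress RE (mean 452 ± 203). The mean of both lists was highest in stress RE, and the ranges overlapped. The choroid plexus list, with 4 of 5 genes detected and Folr1 at 0, had means of 157, 104 and 230.5 CPM in NP, control RE and stress RE. In the same order the fibroblast list had 898, 873 and 917 CPM, the microglia list 134, 125 and 138 CPM, the macrophage list 0, 3.63 and 17.0 CPM and the ependymal list 60.5, 77.2 and 70.9 CPM. In the endothelial class Lama4 stood at 222 CPM, Ghr at 298 CPM, Slc30a10 at 7.499 CPM and S1pr3 at 2.55 CPM, against 365, 313, 410.2 and 163 CPM in pericyte-like nuclei. The part of RNA from any of these classes in the differences was not tested.

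The other genes among the 5 of lowest p in pericyte-like nuclei had log2 differences as follows. For control RE minus NP they were −1.05 for the transcription factor gene Tcf7l2, −0.97 for the Wnt pathway gene Daam2 and −1.11 for the adducin gene Add3. For stress RE minus control RE they were 1.09 for Mpped2 and −1.96 for the cation channel gene Trpm3. Trpm3 was at 266, 334, 354 and 3018 CPM in control RE, so a single mouse, mouse 72, stood far above the rest, and at 18813 CPM in the fibroblast class. For stress RE minus NP they were −1.15 for Dpp10, −0.85 for the phospholipase gene Plcb4, −1.03 for the neuregulin gene Nrg1 and −0.97 for the phosphatase gene Ptpn4. Of the oligodendrocyte precursor list all 6 genes had UMIs in pericyte-like nuclei, and their sum was 178 to 552 CPM in NP (mean 308 ± 136), 124 to 334 CPM in control RE (mean 185 ± 99.8) and 136 to 231 CPM in stress RE (mean 187 ± 37.5). Its mean was highest in NP, and the ranges overlapped. The part of precursor RNA in the differences of these genes was not tested.

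The marker genes of the rule chose the nuclei, so their levels by group are given as a description and are not read as group differences. Atp13a5 in pericyte-like nuclei was at 3410.2 to 4771 CPM (median 4139.6) in NP, at 4092, 4589, 4678 and 4747 CPM in control RE and at 4719.9, 5108, 5183, 5289 and 5589 CPM in stress RE. Stress RE mouse 90 lay within the other groups and the remaining 4 above them. Vtn was at 952, 1840.1, 2246, 2593 and 2719.7 CPM in stress RE against 829.9, 1013, 1099.6 and 1988 CPM in control RE and 803 to 2106 CPM (median 1567) in NP, with overlap. Pdgfrb, the receptor for PDGF-B, was at 871 to 1137 CPM (median 990.1) in NP, at 1030.2, 1118, 1195 and 1261 CPM in control RE and at 891, 1176, 1232, 1268 and 1419.9 CPM in stress RE, with overlap.

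By list, 0 genes were called in the pericyte-like nuclei. The medians of all 1269 genes tested were 0.0060, −0.00016 and 0.0055 on the log2 scale, in the order control RE minus NP, stress RE minus control RE and stress RE minus NP. The 14 pericyte identity genes that passed the filter on low counts, some of which sorted the nuclei, had medians of −0.02, 0.21 and 0.14. The 14 ion channel genes had medians of 0.04, −0.03 and −0.01. The 10 basement membrane genes had 0.17, 0.19 and 0.25, and the 10 transporter genes −0.05, 0.13 and 0.07. The 9 vasoactive genes had −0.03, 0.10 and 0.01, and the 5 recruitment genes −0.25, −0.04 and 0.05. The 4 contractile genes had −0.08, 0.29 and 0.16, and the 3 hormone genes 0.04, 0.13 and −0.10. Of the monoamine and inflammation genes 0 passed the filter. The 3 comparisons share groups and are not independent.

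Over all 885 nuclei the medians were as follows on the log2 scale, and 0 list genes were called. All 5172 genes tested had medians of −0.0095, 0.02 and 0.0091, in the same order. The 18 pericyte identity genes had 0.19, −0.04 and 0.19. Of these 18, the log2 difference was above 0 for 17, 8 and 16, against 2524, 2687 and 2652 of all 5172 genes. In the pericyte-like nuclei it was above 0 for 6, 11 and 13 of the 14 tested, against 645, 634 and 642 of all 1269 genes. The 16 ion channel genes had 0.29, −0.16 and 0.02, the 13 vasoactive genes 0.20, −0.13 and 0.15 and the 22 basement membrane genes 0.14, −0.03 and 0.08. The 19 recruitment genes had −0.10, −0.06 and −0.17, the 15 transporter genes 0.08, −0.03 and −0.00092, the 6 contractile genes −0.02, 0.19 and 0.22 and the 12 hormone genes −0.02, 0.06 and −0.0028. The 3 monoamine genes had 0.20, −0.09 and 0.11, and the 5 inflammation genes −0.21, −0.03 and −0.01. Pericyte-like nuclei made up 42.4% ± 11.2 of the chosen nuclei of NP mice (27.4% to 57.4%), 52.0% ± 13.8 of control RE (37.5% to 66.1%) and 48.0% ± 10.8 of stress RE mice (35.0% to 61.4%). Those ranges overlapped, and the part of this share in the list medians was not tested.

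**Figure D5:**
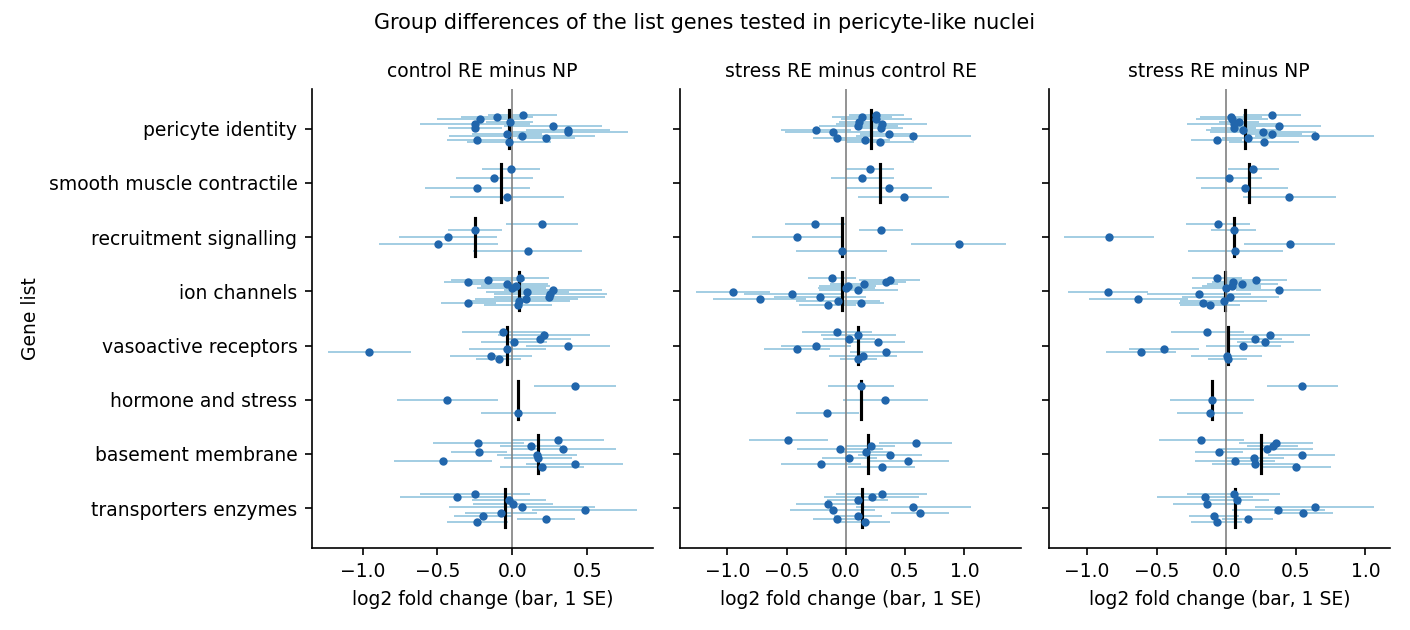
Log2 fold change of each list gene tested in pericyte-like nuclei (points, bars of 1 SE) for control RE minus NP (left), stress RE minus control RE (centre) and stress RE minus NP (right), by gene list (y axis), with black lines at the list median. The points lie on both sides of 0, and Pde3a is the lowest point at left at −0.95.

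Over all 885 nuclei, with every kind included, the lowest p belonged to other genes. In control RE against NP they were Btbd1, at 37.2, 47.7, 51.6 and 66.1 CPM in control RE against 63.8 to 111 CPM (median 96.8) in NP (log2 difference −0.89, SE 0.24, adjusted p = 1.00 by edgeR), and Stau2, of RNA transport, at 133, 147, 154 and 179 CPM against 67.3 to 109 CPM (median 72.7) (0.83, SE 0.22, adjusted p = 1.00). Every control RE mouse lay above every NP mouse for Stau2. In stress RE against control RE, Zmynd8, a chromatin reader gene, was at 164, 172, 206, 223 and 287 CPM against 95.9, 133, 138 and 142 CPM without overlap (log2 difference 0.74, SE 0.21, adjusted p = 1.00 by edgeR). In the pericyte-like nuclei the Zmynd8 difference with the low p was that of control RE minus NP, at −1.37 (SE 0.44, adjusted p = 0.999 by edgeR). Among the others of low p were Arhgap24 (0.95), Iqgap2 (1.09) and Ufl1 (−0.82) for control RE minus NP, Grik1 (−1.27), Rab14 (0.75), Egln1 (1.66) and Gm11266 (1.03) for stress RE minus control RE, and Sdk1 (−1.89), Zfp804b (−1.05), Grik1 (−1.28) and mt-Atp6 (1.24) for stress RE minus NP, as log2 differences.

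The glucocorticoid receptor gene Nr3c1 was at 159, 191, 207 and 274 CPM in control RE and at 256, 284, 287, 310.2 and 343 CPM in stress RE over the 885 nuclei (log2 difference 0.55, SE 0.19, adjusted p = 1.00 by edgeR). In the pericyte-like nuclei the same difference was 0.33 (SE 0.36), with 159.6, 165, 168 and 199 CPM in control RE and 101, 179.6, 217, 256 and 288 CPM in stress RE. The groups overlapped in both sets. Zbtb16, a gene that glucocorticoids induce, had the opposite sign over the 885 nuclei, at 186, 192, 255 and 331 CPM in control RE and at 103, 107, 142, 161 and 174 CPM in stress RE, without overlap (log2 difference −0.80, SE 0.25, adjusted p = 1.00 by edgeR). That Zbtb16 difference is of nuclei of every kind and is not given for the pericyte-like nuclei alone. There 3 hormone and stress genes were tested, and 0 had an unadjusted p under 0.05 by edgeR for stress RE minus control RE. Per1, a clock gene that glucocorticoids also induce, differed by −1.08 (SE 0.35) for stress RE minus NP, and Nr3c1 by −0.41 (SE 0.18) for control RE minus NP.

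The other list genes with an unadjusted p under 0.05 over the 885 nuclei were given by edgeR the following log2 differences, and 0 passed the adjusted threshold. For control RE minus NP they were −1.26 (SE 0.55) for Foxc1, 0.48 (SE 0.21) for Gucy1a2, a subunit gene of the nitric oxide receptor, −0.71 (SE 0.32) for Pdgfd and 0.66 (SE 0.30) for the integrin gene Itga8. For stress RE minus control RE they were 1.56 (SE 0.55) for Foxc1, −0.83 (SE 0.32) for Itga8 and 1.00 (SE 0.42) for the cytokine gene Il33. For stress RE minus NP the difference was 1.37 (SE 0.48) for Ndufa4l2, of the pericyte identity list. The sum of the astrocyte list over the 885 nuclei was 5929 to 11398 CPM in NP (mean 8588 ± 2088), 6700.1 to 9599 CPM in control RE (mean 8397 ± 1363) and 4257 to 12227 CPM in stress RE (mean 8792 ± 2976). Of the choroid plexus, macrophage and ependymal lists all 5 genes each had UMIs. The choroid plexus list summed to 89.8 to 4919 CPM in NP (mean 2266 ± 1842), 78.4 to 1935 CPM in control RE (mean 748 ± 848) and 96.1 to 5966 CPM in stress RE (mean 2149 ± 2721). The macrophage list summed to 0 to 59.3 CPM in NP (mean 16.4 ± 21.6), 14.8 to 249.7 CPM in control RE (mean 93.6 ± 108) and 0 to 35.5 CPM in stress RE (mean 16.1 ± 12.9). The ependymal list summed to 9.45 to 66.2 CPM in NP (mean 33.5 ± 24.8), 30.7 to 243 CPM in control RE (mean 101 ± 96.9) and 23.5 to 195 CPM in stress RE (mean 63.1 ± 74.1). In the order NP, control RE and stress RE, the means were 161, 202 and 247 CPM for the endothelial list, 1242, 927 and 964 CPM for the oligodendrocyte list, 414, 371 and 349 CPM for the precursor list, 2561, 2694 and 2757 CPM for the neuron list, 1232, 1112 and 1115 CPM for the fibroblast list and 136, 164 and 143 CPM for the microglia list. The group ranges overlapped for each of these lists, and the part of any of them in the differences over the 885 nuclei was not tested.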

How the data were processed

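Nuclei from dHF micropunches of 15 mice were sequenced with 10x Chromium 3′ v3.1 chemistry, and groups and batches were taken from the labels. The authors deposited per-sample matrices of raw UMI counts for 32285 genes made with Cell Ranger (7.1.0 per the processing notes and 7.0.0 per the file headers) on the mm10 reference, GRCm38. The ambient RNA and doublet correction described in the study's methods is not part of these deposited counts. Nuclei were chosen by the marker rule with scipy 1.17.1 and pandas 2.3.3 under Python 3.11.15. The members, gene lists and tests were chosen with earlier results of these data known, and the pericyte-like limits after the marker sums were seen.

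UMIs were summed per mouse over chosen nuclei. Genes were filtered with filterByExpr and tested in edgeR 4.0.16 (R 4.3.3; quasi-likelihood, TMM, all 3 groups in a single fit, no batch term, Benjamini-Hochberg adjusted p at 0.05), with DESeq2 1.42.0 as an alternative. The fit was tested on simulated data with 200 changed genes. Over the chosen nuclei it found 44%, 37% and 51% of those changed by 1 on the log2 scale, and 83%, 93% and 95% at 2. These are for control RE minus NP, stress RE minus control RE and stress RE minus NP. In pericyte-like nuclei it found 66%, 55% and 73% at 1, and 98%, 90% and 98% at 2. Many differences of 1 on the log2 scale could thus be missed. A mouse with under 10 nuclei was left out of a fit. Shares were compared by two-sided exact permutation tests over mice. Nothing in the labels says more than that each library is a separate sample, here named by its mouse number. Doublets were scored with Scrublet in scanpy 1.11.5, with 10005 barcodes removed in the alternative. The pericyte-like nuclei gave 30125 to 77414 UMIs per mouse, which limits what low genes can show. Promoter windows of 250 bases came from RefSeq.

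Genes were named by rule: the 4 markers, the 3 genes highest over the chosen nuclei in each of 10 lists, the 5 lowest p in each comparison, and the 12 genes of at least 50 CPM with the highest ratio to the endothelial, fibroblast and oligodendrocyte classes. All other genes, among them further list genes, Gper1, Hey2 and those ranked in the pericyte-like nuclei, were named after their values were seen. Alternatives covered the marker limit, doublets, thinning to 1000 UMIs, batch, size factors, the filter and each mouse left out. Results of some genes are not reported here.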

Additional observations from a re-analysis of the deposited data

Results flagged for a closer look

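Of 132 sets of 4 to 6 values screened, 12 had a mouse that stood far from the others of its group, where chance gives about 5%. By composition, pericyte-like nuclei were 0.571% of barcodes in NP mouse 27 (other NP mice 0.209% to 0.341%). Astrocyte-marked nuclei were 48.8% of the chosen nuclei in NP mouse 73 (others 25.0% to 33.9%), and fibroblast-marked nuclei were 35.0% in stress RE mouse 70 (others 8.45% to 12.7%). The median depth of the pericyte-like nuclei of control RE mouse 72 was 1095 UMIs, against 1783.5 to 1844 in the other control RE mice.

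The remaining values are CPM in pericyte-like nuclei. Slc6a20a was at 1674 in control RE mouse 72 (others 1175 to 1211) and Itpr1 at 1075 in the same mouse (others 634 to 697). Cacna1c was at 1713 in NP mouse 35 (others 2351 to 2661). Kcnma1 was at 598 in control RE mouse 88 (others 377 to 410.0) and at 405 in stress RE mouse 90 (others 144 to 204). Thrb, a thyroid hormone receptor gene, was at 21.6 in NP mouse 31 (others 97.3 to 138). Slc1a3 was at 185 in stress RE mouse 75 (others 68.2 to 101) and Higd1b at 178 in NP mouse 37 (others 43.1 to 73.7).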

How the results depend on the processing

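Of the alternatives to the shares and gene counts, 313 kept direction and, where tested, side of the threshold, 41 reversed a direction, 6 moved a count and 2 passed the threshold. Without control RE mouse 87 the share of chosen nuclei differed by −0.294 points for control RE minus NP (exact permutation p = 0.0476). Leaving out each mouse gave −0.294 to −0.181, 0.0532 to 0.166 and −0.172 to −0.0703 points for control RE minus NP, stress RE minus control RE and stress RE minus NP, and −38.0 to −10.8, 24.3 to 71.6 and 0.758 to 48.1 per 100 endothelial barcodes. Within batch 2, stress RE minus NP reversed to 0.0907 points and to −33.5 per 100 endothelial barcodes. The cause was not tested. For pericyte-like nuclei, in alternatives added after seeing the data, leaving out each mouse gave −0.0740 to 0.000847, −0.0121 to 0.0583 and −0.0406 to 0.0324 points, and −9.35 to 7.52, 8.46 to 24.4 and 7.12 to 25.0 per 100 endothelial barcodes. The highest of the last came without NP mouse 35 (exact permutation p = 0.0397). Control RE minus NP reversed within batch 3 to 0.00574 points and 17.1 per 100. Stress RE minus NP reversed to 0.0703 points within batch 2 and 0.0154 within batch 3, and to −15.7 per 100 within batch 2. The share rich in contractile genes, with 12 nuclei in all, had no stable direction. Control RE minus NP was −1.61 points within batch 3, −0.878 at 2 or more UMIs, −0.154 at 5 or more, −0.402 after thinning, −0.389 without doublets, −0.631 in pericyte-like nuclei and −0.573 to 0.502 without single mice. Stress RE minus control RE was 0.704, 0.815, 0.414, 0.469 and 0.376 under the first 5 of these, and −0.560 to 0.516 without single mice. Stress RE minus NP was 0.617 within batch 1 (1 stress RE mouse, an alternative added after seeing the data), 0.661 within batch 2, 0.260 at 5 or more UMIs, 0.0665 after thinning and −0.497 to 0.297 without single mice. On a log2 scale it had no value, since 6 mice were at 0.

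With no filter on low counts edgeR called 10, 15 and 23 genes over the 885 nuclei in the same order, against 0. Leaving out single mice gave 0 to 0, 0 to 2 and 0 to 3 genes, the calls coming in pericyte-like nuclei. They were Dpp6 and Nkain2 without stress RE mouse 90, and Cst3 (log2 difference 1.99), Ptn (0.86) and mt-Atp6 (1.68) without NP mouse 37 (edgeR adjusted p = 0.0386). Without nuclei marked for other classes, where NP mouse 63 fell below 10 nuclei and was left out, 1 gene passed, Zfpm2 at −1.73 (edgeR adjusted p = 0.0452). These genes were named after their values were seen. No paired analysis was possible because the replicate numbers name single mice and are not shared between groups.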

Other observations

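Batch and group overlapped only in part, since batch 1 held no control RE mouse. When the fit of the pericyte-like nuclei held a batch term, edgeR called 0 genes in each comparison, with 45, 89 and 84 at an unadjusted p under 0.05 for control RE minus NP, stress RE minus control RE and stress RE minus NP.

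Depth of the pericyte-like nuclei also differed between mice. Their group mean of median UMIs was 2127.5 ± 418 for NP mice, 1637 ± 362 for control RE and 1872 ± 541 for stress RE, and control RE minus NP was −491 UMIs (exact permutation p = 0.114). Its part in the gene levels was not tested.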
